A study of Schizosaccharomyces pombe with 5 samples.

Results

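The subtelomeric genes of chromosomes I and II of the fission yeast *S. pombe* were taken as all genes whose identifier begins with 1 of 13 clone prefixes (SPAC212, SPAC977, SPAC750, SPAC186, SPAC869, SPAC922, SPBC1348, SPBPB10D8, SPBPB21E7, SPBPB2B2, SPBPB7E8, SPBPB8B6 and SPBCPT2R1), without the sulfate transporter gene *sul2* and without genes named mug, meu or Tf2. Of the 5145 genes listed, 115 carried such a prefix, and leaving out *sul2* gave 114 genes. None of the 115 had a mug, meu or Tf2 name. RNA was sequenced from wild-type cells of strain 972 h- under 5 conditions. These were 3 mM diamide (DIA, a thiol oxidant) for 30 min or 60 min, 75 mM hydroxyurea (HU, an inhibitor of ribonucleotide reductase) for 60 min or 150 min, and untreated cells. All groups were wild type by their labels, and RNA came from whole cells.

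The value analysed was 1 number per gene, the mean normalized count, which the authors obtained by scaling the read counts of every library with a size factor and taking their mean across treated and untreated libraries together. The deposited sequencing statistics list 15 libraries, 3 for each of the 5 conditions by their names, while the labels name 1 sample per condition. It carries no spread between repetitions, so no difference given here could be set against replicate error and no test was made. A gene that is high in 1 condition and low in the others cannot be told apart from a gene with the same level throughout, and nothing below describes an effect of DIA or HU. A mean normalized count over all libraries is called a level, and a level divided by the coding length is given per kb.

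Subtelomeres are the regions next to the telomere repeats at the chromosome ends. In fission yeast they are packed into heterochromatin marked by methylation of histone H3 on lysine 9 and bound by the HP1 protein Swi6, and, further inward, into condensed chromatin that depends on the shugoshin Sgo2. The parts nearest to the telomeres are made of blocks repeated between chromosome ends, and the genes there encode helicases, surface proteins, transporters and enzymes for the use of alternative nutrients. The mRNAs of the factors that form this chromatin were measured in these cells. Of 26 listed genes for shelterin, H3K9 methylation, histone deacetylation, RNA interference, Sgo2, Set2, Rif1 and telomerase, none had a level under 50. Such a level was found for 208 of all 5031 genes outside the subtelomeric group (4.13%). The median of the 26 genes was 931 (226 to 3032), below the median of 1329 of those 5031 genes. Among the 26, the HP1 gene *swi6* had a level of 2577, *sgo2* 1364, the shelterin gene *taz1* 1699 and the methyltransferase gene *clr4* 226. As a check of the cells, 6 housekeeping genes lay between 59346 (*act1*) and 386829 (*tdh1*), and 7 genes of mating and meiosis between 7.30 (*mei3*) and 398 (*mei2*), with 3 of these 7 under 50.

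In the RefSeq annotation of assembly ASM294v3, used here for names, gene order, coding length and sequence similarity, all 114 genes were found. Of these, 112 lay among the outermost 34 protein-coding genes of a chromosome end. They were 25 genes of the left end of chromosome I, 33 of its right end, 32 of the left end of chromosome II and 22 of its right end. The other two, SPBPB7E8.01 and SPBPB7E8.02, were the 426th and 425th protein-coding genes from the nearest end of chromosome II, so that the label subtelomeric does not describe their position. Their levels were 4146 and 1360.

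Subtelomeric genes had low levels as a group. Their median level was 17.0, with quartiles of 1.55 and 334, against a median of 1329 and quartiles of 635 and 2818 for the 5031 other genes. A level under 50 was found for 70 of 114 subtelomeric genes (61.4%) and for 208 of 5031 other genes (4.13%). A level under 10 was found for 50 subtelomeric genes (43.9%) and for 81 other genes (1.61%), so that subtelomeric genes, 2.22% of all genes, made up 38.2% of the 131 genes under 10. At the upper end, 16 subtelomeric genes (14.0%) and 3073 other genes (61.1%) reached 1000, and 12 subtelomeric genes were above the median of the other genes. The counts of 16 and 12 both include the 2 interior genes SPBPB7E8.01 and SPBPB7E8.02. The median coding length was 979.5 bases for subtelomeric genes and 1143 bases for other genes, and the median level per kb was 17.0 and 1100.1. On the log2(level per kb + 1) scale the medians differed by -5.94 (subtelomeric minus other genes). The difference was -2.60 among genes with unique sequence, which are 54 of the 114, and -3.15 for the 63 subtelomeric genes without a near-identical copy.

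**Figure D1:**
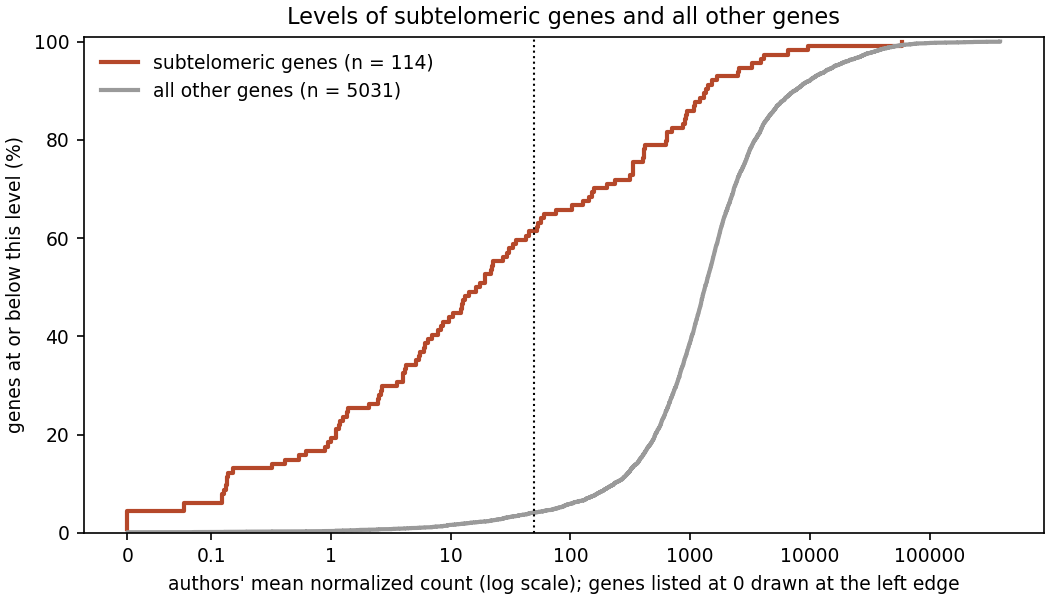
Cumulative share of genes (vertical axis, %) at or below each mean normalized count (horizontal axis, log scale, genes listed at 0 at the left edge) for 114 subtelomeric genes and 5031 other genes; the dotted line marks a level of 50. At this line the curve of the subtelomeric genes stands at 61.4% and that of the other genes at 4.13%.

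More of the summed level of the group came from 1 gene than from all the others. SPAC977.14c, which encodes a protein of the aldo-keto reductase family, had a level of 58972 and was the 36th highest of all genes. It held 52.0% of the summed level of the 114 genes, which together made up 0.546% of the summed level of all genes. Leaving aside the interior gene SPBPB7E8.01, the next were SPAC922.04, which encodes an uncharacterized protein (9677), *yhb1*, which encodes a nitric oxide dioxygenase (6492), and *aes1*, of the phenazine biosynthesis family (3919). They were followed by *cat1*, a transporter of arginine and lysine (3310.3), the sodium/proton antiporter gene *nhe1* (2559.8) and *pan5*, a 2-dehydropantoate 2-reductase gene (2521). Per kb of coding length SPAC922.04, a short gene of 354 bases, was the second of the group with 27336, after SPAC977.14c with 55844. Of the genes near the ends, levels of 1000 or more were also found for the aldo-keto reductase gene SPAC750.01 (1685), SPAC977.17 of the water and glycerol channel superfamily MIP (1529), the L-asparaginase gene SPAC977.12 (1408), *gdt1* (1299.7), the 1-aminocyclopropane-1-carboxylate deaminase gene SPAC922.03 (1212), the dihydroxyacetone kinase gene *dak2* (1102) and the arylsulfatase gene SPBPB10D8.02c (1072).

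At the lower end, 21 of 114 subtelomeric genes (and 18 of 5031 other genes) had a level under 1. Of these 21 genes, 5 were listed at 0. They were SPAC750.02c, SPBCPT2R1.03, SPBPB10D8.05c, SPBPB10D8.06c and SPBPB10D8.07c, and the tables of DIA for 30 min and HU for 150 min left them out. A total of 11 genes were listed at 0 in the whole series, among them *atp8* of the mitochondrial genome, so a listed 0 was not read as absence of the mRNA. The lowest levels above 0 were 0.0598 for *ftm3*, a gene for a protein with transmembrane helices, and for the dehydrogenase gene SPBC1348.09. All 5 genes at 0 had no 100-base stretch of coding sequence that occurs only once in the genome.

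The lowest medians lay next to the chromosome ends. Over the 4 ends, the outermost 10 genes of each had a median level of 3.11, the 40 genes at positions 11 to 20 a median of 26.3 and the 32 genes from position 21 to 34 a median of 324. A level under 50 was found for 34 of the outermost 40 genes, 23 of the next 40 and 13 of the innermost 32. Repeated sequence followed the same order. Fewer than 90% of the 100-base coding windows were unique in the genome for 38, 15 and 7 of these genes. The ends were not alike in level or in unique sequence. All of the outermost 10 genes of the left end of chromosome II had levels between 0.0598 and 6.93, with a median of 0.774. At its right end the outermost 10 genes had a median of 1.55 and a highest level of 60.1. The outermost 10 of the right end of chromosome I had a median of 5.40, and 9 of them were under 50, with SPAC750.01 (1685) at position 8 as the exception. At the left end of chromosome I the median was 17.9, and 4 of the outermost 10 genes exceeded 50. These were SPAC212.04c (419.6), the GPI-anchored protein genes SPAC212.08c (103) and SPAC212.12 (75.0), and *ftm1* (52.2). Of their 100-base coding windows, SPAC212.12 had 0%, *ftm1* 1.05%, SPAC212.08c 58.4% and SPAC212.04c 72.2% unique in the genome. All 4 genes were under 90%, so these 4 levels are uncertain. The median unique share of the outermost 10 genes was 25.8% and 13.9% at the left and right end of chromosome I. It was 0% at both ends of chromosome II. The part of repeated sequence in the differences between positions and between ends was not tested.

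Low and high genes alternated further inward. On the right end of chromosome I, *yhb1* at position 19 stood at 6492 beside SPAC869.01, an amidase gene at position 18, with 5.98, and SPAC869.03c, a urea transporter gene at position 20, with 6.50. On the left end of chromosome II the level was 3919 for *aes1* at position 25 and 0.129 for its neighbour SPBPB21E7.05 at position 24. The coding windows of all 5 of these genes were unique in the genome. On the left end of chromosome I, the phospholipase gene *plb4* at position 18 had a level of 0.901 and *nhe1* at position 19 had 2559.8, but *plb4* has an identical copy and no unique window, while all windows of *nhe1* were unique. On the right end of chromosome II no gene nearer to the end than position 12 reached 100, and *gal1* at position 12 had 878.

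**Figure D2:**
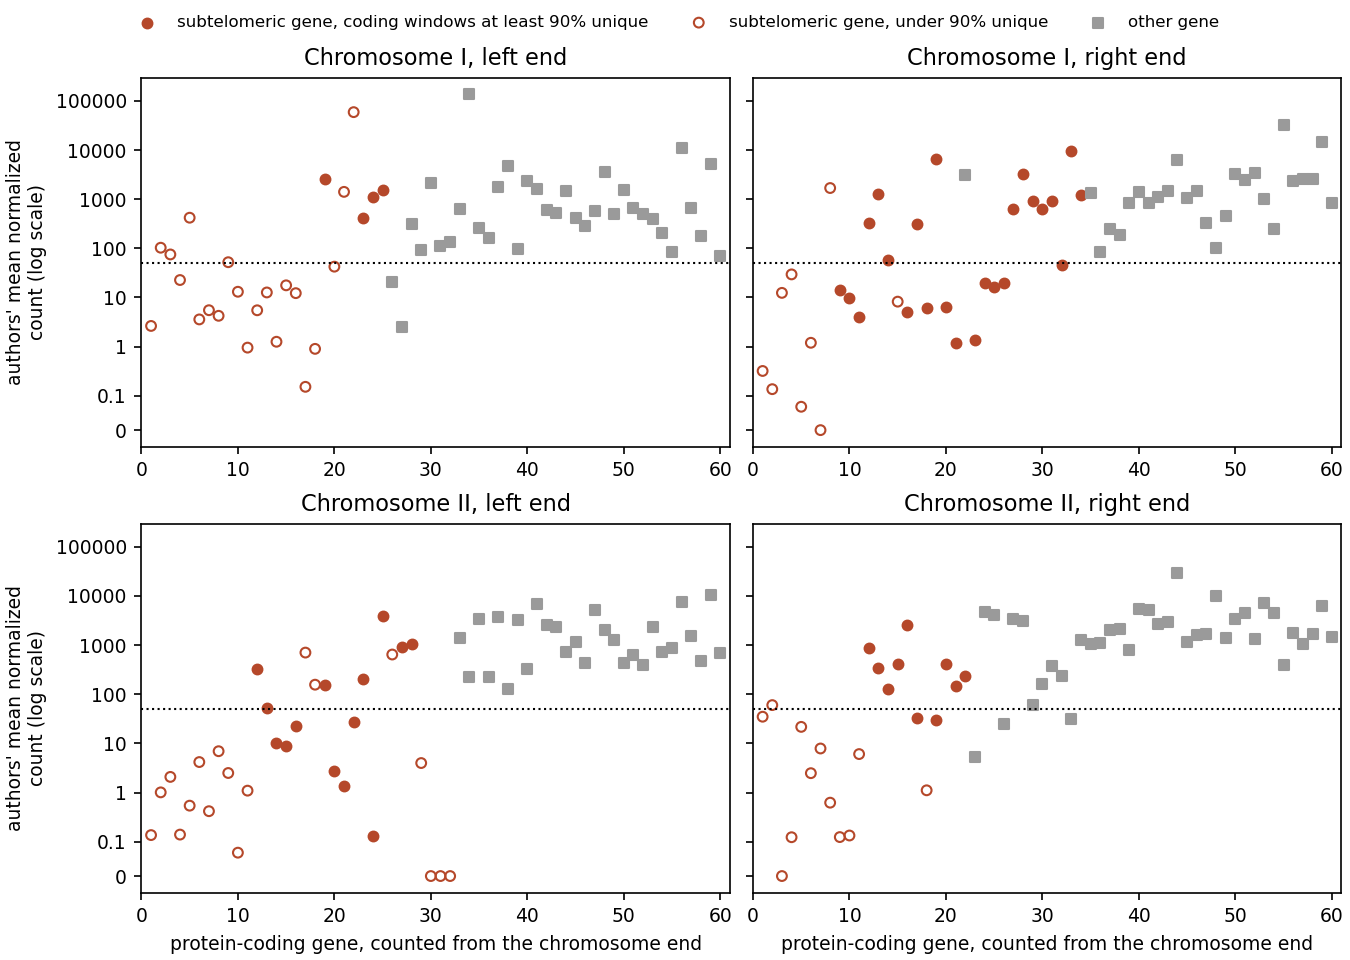
Mean normalized count (vertical axis, log scale) of the outermost 60 protein-coding genes of each end of chromosomes I and II, counted from the end (horizontal axis). Filled circles are subtelomeric genes with at least 90% of their 100-base coding windows unique in the genome, open circles those with less, grey squares other genes, and the dotted line a level of 50; the open circles lie mainly in the outermost 10 positions, where 34 of 40 genes were under 50.

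The number of reads a gene can be given depends on how much of its sequence is its own, and this moved with the levels. In the outermost 10 positions, 38 of 40 genes had fewer than 90% unique 100-base coding windows, and in the whole group this held for 60 of 114 genes (52.6%), against 68 of the 4968 other genes with a value (1.37%). The 60 genes with repeated windows had a median level of 3.78, and the 54 genes with unique windows had a median of 220.3. Among other genes, the median was 474 for 68 genes with repeated windows and 1350.4 for 4900 with unique windows. Low levels were also found where sequence was unique, since 21 of these 54 subtelomeric genes (38.9%) were under 50, against 164 of the 4900 other genes (3.35%). The part of repeated sequence in the low levels was not tested. Reads from such stretches fit several genes, and how the counting treated them is not given in the sources used here.

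A protein of at least 90% identity over at least 80% of the longer sequence was found for 51 of 114 genes, in 19 families, of which 18 had members at more than 1 chromosome end. The 51 genes with a copy had a median level of 2.50, with 42 under 50, and the 63 genes without a copy had a median of 128, with 28 under 50. Levels of these 51 genes are uncertain one by one for the reason given above, and a difference between copies is a difference between counts, which need not be one between mRNAs.

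In the annotation used, the RecQ type helicase genes *tlh2* and *tlh1* were each the outermost protein-coding gene of an assembled chromosome end. Their aligned protein sequences were identical, and their levels were 34.9 and 2.64. Only 3.50% of the windows of *tlh2* and 1.80% of those of *tlh1* were unique. The helicase-like gene SPAC212.06c had 22.6. Of the GPI-anchored protein gene SPAC212.12 and its identical copy SPAC750.07c, the first had a level of 75.0 and the second 0.136. The glycoprotein gene *pfl6* had 12.2 and its identical copy SPBC1348.08c had 2.50. The surface glycoprotein gene *pfl9*, of the DIPSY family and without a copy, had 315. The 5 genes annotated as glycoproteins or GPI-anchored proteins had a median of 75.0, which is the level of SPAC212.12. SPAC750.07c, annotated as an uncharacterized protein, was not counted among them. SPAC212.12 had 0% unique coding windows, so this median is uncertain.

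Genes for proteins with transmembrane helices (ftm) fell into 2 families, each with 1 gene at each of the 4 ends. In the family of longer proteins, *ftm1* had a level of 52.2, *ftm4* 29.5, SPBPB2B2.19c 2.48 and *ftm5* 2.08. In that of shorter proteins, *ftm2* had 0.954, *ftm7* 0.622, *ftm6* 0.139 and *ftm3* 0.0598. All levels of the second family were thus below each level of the first. This separation did not hold per kb of coding length, where *ftm2* of the shorter proteins lay above *ftm5* of the longer ones. A family of 5 uncharacterized proteins also reached all 4 ends, with 60.1 for SPBCPT2R1.04c, 21.7 for SPBCPT2R1.01c, 12.4 for SPAC750.06c, 4.24 for SPAC212.01c and 1.01 for SPBC1348.01. SPAC212.04c, whose protein was 70.1% identical to that of SPAC212.01c and had no near-identical copy, stood above all of them with 419.6. It had 72.2% unique coding windows, while the 5 genes of the family had 0% to 18.6%. The part of repeated sequence in this difference was not tested. In the smaller families, the methyltransferase genes SPAC977.03, SPAC750.03c and SPBC1348.04 had 5.49, 1.20 and 0.541, and the Vel1p domain genes SPAC977.05c, SPBC1348.06c and SPBPB2B2.15 had 1.26, 0.417 and 0.134. Levels of 6.93 and 6.061 were found for SPBC1348.07 and SPBPB2B2.14c, 1.09 and 0.901 for the phospholipase genes SPBC1348.10c and *plb4*, and 0.152 and 0.0598 for the dehydrogenase genes *ayr2* and SPBC1348.09. Of the uncharacterized pair SPAC212.02 and SPBCPT2R1.02 the levels were 5.51 and 0.123, and of SPAC212.03, SPBC1348.15 and SPBCPT2R1.03 they were 3.58, 0.136 and 0.

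Of the 51 genes with a copy, 3 reached 1000, and all were enzyme genes. SPAC977.14c and SPAC750.01, the aldo-keto reductase genes at the left and right end of chromosome I, encoded proteins with 94.5% identity, had 79.8% and 78.0% unique windows, and differed in level by 35.0 times (58972 and 1685). Among 4 genes of L-asparaginase, which releases ammonium from asparagine, SPAC977.12 and SPBPB8B6.05c (99.7% identity) had 1408 and 704. SPBPB21E7.09 and SPAC186.03 (98.6% identity) had 643 and 8.22. Both genes of this second pair had 34.2% unique windows and both of the first pair 14.9%. The fluoride export channel genes *fex2* and *fex1*, with identical proteins and 0.717% unique windows each, had 156 and 42.4.

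**Figure D3:**
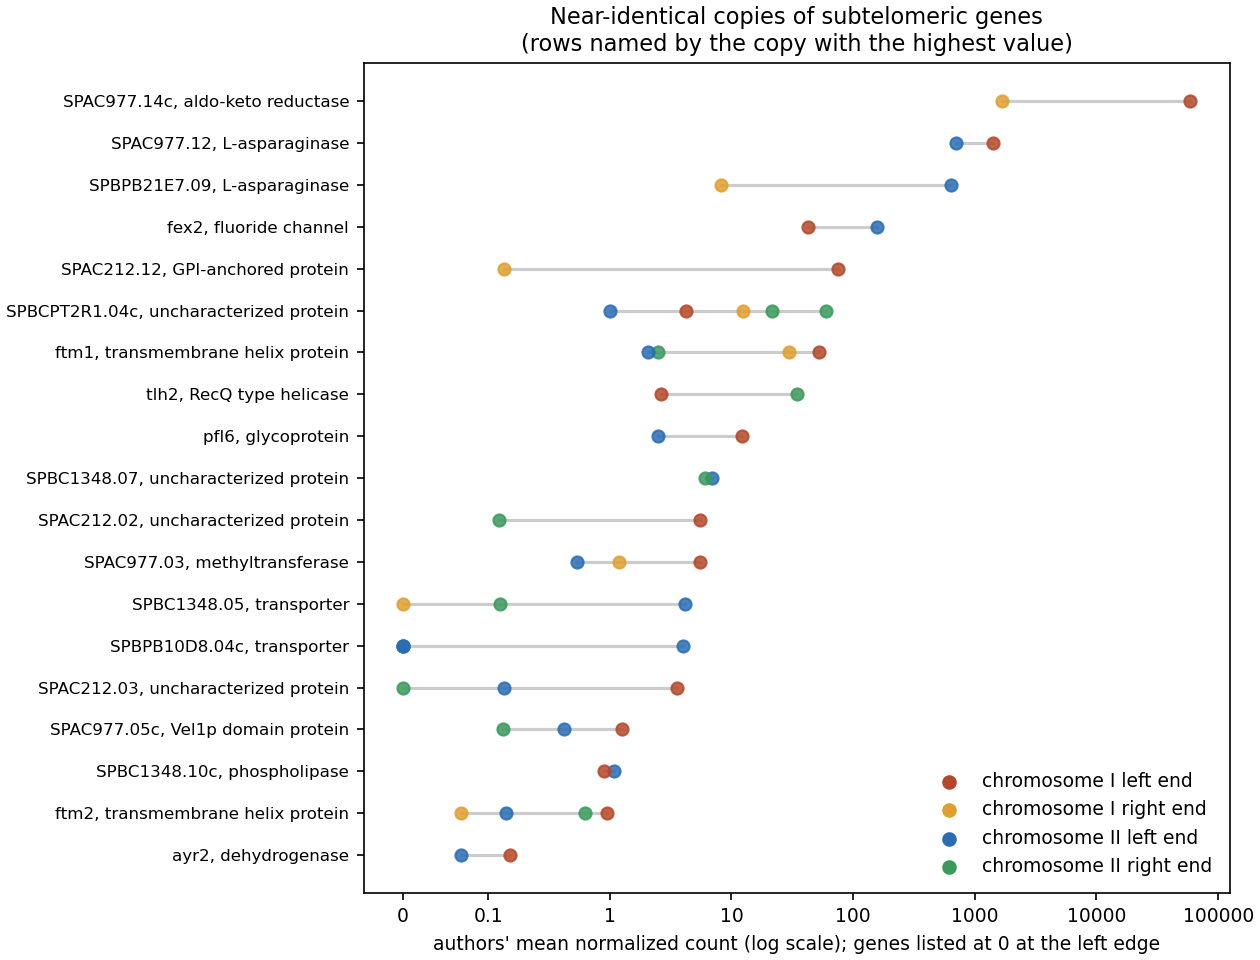
Mean normalized count (horizontal axis, log scale, genes listed at 0 at the left edge) of each copy in the 19 families of subtelomeric genes with near-identical proteins; each row is a family, each point a gene coloured by its chromosome end, and rows are named by the copy with the highest value. The aldo-keto reductase pair lies highest at 58972 and 1685, and 3 families contain copies listed at 0.

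By role, none of the 4 amino acid transporter genes was under 50. Their median level of 785 was close to that of the 12 genes of oxidoreductases and detoxification (777). Per kb it was lower, with 473 and 714. They were *cat1* (3310.3), the cysteine transporter gene SPBPB10D8.01 (933), the proline transporter gene *put4* (638) and the amino-acid permease gene SPBPB2B2.01 (238). Genes for the use of amides and urea were lower, with a median of 10.4 over 9 genes and 6 of them under 50. Apart from the asparaginase genes these were the urea transporter genes SPBPB8B6.02c (10.4) and SPAC869.03c (6.50), the amidase gene SPAC869.01 (5.98), the formamidase-like gene SPAC869.04 (1.16) and the acetamidase gene *fah1* (22.1). The coding windows of these 5 genes were all unique.

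Of 13 genes for other transporters and channels 8 were under 50, with a median of 4.17. The highest were *nhe1*, SPAC977.17 and SPAC922.05c (899), and 4 were listed at 0. The hexose transporter gene *ght7* had a level of 53.3. The transporter genes SPBPB10D8.04c, SPBPB10D8.05c, SPBPB10D8.06c and SPBPB10D8.07c stood side by side on the left end of chromosome II and encoded identical proteins with no unique coding window. The first had a level of 3.98 and the others were listed at 0. In a family of 3 copies at different ends, SPBC1348.05 had 4.17, SPBPB2B2.16c had 0.124 and SPAC750.02c was listed at 0.

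In sugar and carbon metabolism the median was 140.0 over 10 genes, of which 4 were under 50. The neighbouring genes of the pathway that converts galactose to glucose phosphate, near the right end of chromosome II, had levels of 878 for the galactokinase gene *gal1*, 404 for the uridylyltransferase gene *gal7* and 334 for the epimerase gene *gal10*. Between them lay *tgd1*, a nucleotide-sugar dehydratase gene, with 128. The melibiase gene *mel1*, on the right end of chromosome I, had 19.3. Levels were 152 for the enolase gene *eno102*, 14.3 for the pyruvate decarboxylase gene *pdc102*, 9.60 for the L-lactate dehydrogenase gene SPAC186.08c and 2.69 for SPBPB21E7.02c of the phosphoglycerate mutase family.

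The 12 genes of oxidoreductases and detoxification had a median of 777, and 4 were under 50. This median depends on which genes were placed in the role. The L-lactate dehydrogenase gene SPAC186.08c (9.60) was counted under sugar and carbon metabolism. The NAD-dependent malic enzyme gene SPAC750.08c (0.320) was not among the 12 either. Beside SPAC977.14c, *yhb1*, *aes1*, *pan5* and SPAC750.01, all above 1000, they included the aldehyde dehydrogenase gene *atd2* (928), the reductase gene SPAC922.06 (626) and the dienelactone hydrolase family gene SPAC977.15 (410.5). The hydroxyacid dehydrogenase genes SPAC186.02c and SPAC186.07c, with 71.7% identity and unique windows, had 5.12 and 4.02. Of the other named genes, the catechol O-methyltransferase gene *cmt2* had 203, the sterol deacetylase gene *say1* 144, the protein-L-isoaspartate methyltransferase gene *pcm2* 16.3, the transcription factor gene *grt1* 8.69 and *hry1*, of a cation-binding domain family, 1.36. The transcription factor gene SPBC1348.12 had 331.

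**Figure D4:**
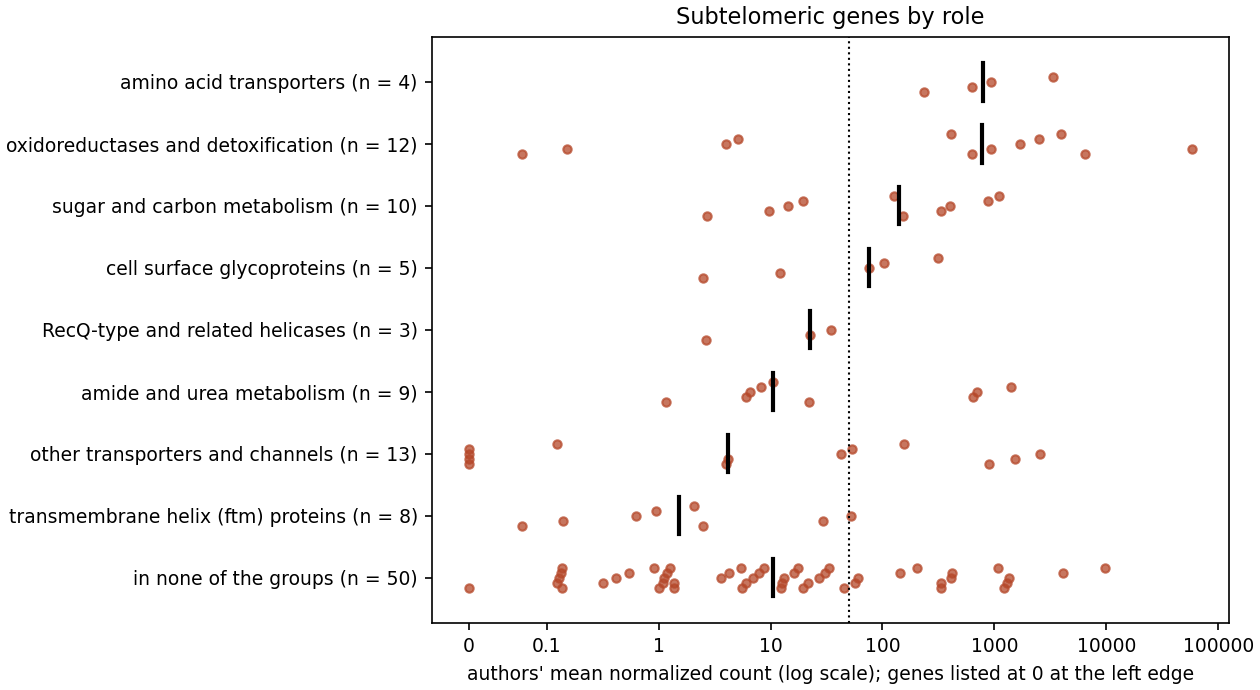
Mean normalized count (horizontal axis, log scale, genes listed at 0 at the left edge) of the 114 subtelomeric genes grouped by role, with the number of genes in brackets. Each point is a gene, the bar the median of the group and the dotted line a level of 50; amino acid transporter genes all lie above this line, and of the 8 ftm genes 7 lie below it.

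For 27 subtelomeric genes a similar protein was encoded by a gene outside the group, with 30.2% to 84.0% identity. Per kb of coding length, 22 of them were below and 5 above the most similar other gene, with a median difference of -3.20 on the log2(level per kb + 1) scale (subtelomeric gene over the other). Several of the 27 share the same other gene, since copies of a family were each compared. Among the 22 lower genes, *plb4*, SPBC1348.10c, SPAC750.02c and SPBPB2B2.16c had 0% unique coding windows and SPBC1348.05 had 7.36%, so their values are uncertain. Unique windows made up 78.0% for SPAC750.01, also lower, and 79.8% for SPAC977.14c, which was higher. All windows of the remaining genes of the 27 were unique. Genes of glycolysis and fermentation were among those that differed most. The level per kb was 115 for *eno102* and 195721 for *eno101*, and 8.33 for *pdc102* and 79275 for *pdc101*. The phospholipase gene *plb4* had 0.445 per kb and *plb3* 2413, and the hexose transporter gene *ght7* had 34.2 and the glucose transporter gene *ght5* 2361. For *atd2* and *atd1* the values per kb were 622 and 27241, for *dak2* and *dak1* 621 and 2616, for *cmt2* and *cmt1* 240.0 and 4386, and for *gdt1* and *gdt2* 1647 and 3687. The phosphatase gene SPBPB2B2.06c, at 84.0% identity the closest of these pairs, had 16.9 per kb and SPAC1039.02 had 3496. On the other side were SPAC977.14c, at 55844 per kb against 2871 for *osr2*, *put4* at 384 against 21.2 for *dip5*, SPAC922.06 at 805 against 243 for SPAC4H3.08, *cat1* at 1877 against 793 for SPBC359.01, and SPAC922.05c at 593 against 346 for SPAC6F6.04c. In the order given, identity in these 5 pairs was 34.4%, 37.9%, 30.2%, 78.4% and 32.3%. In the 22 lower pairs it ran from 33.2% (SPAC750.01 with *osr2*) to 84.0%. The permease genes SPBPB2B2.01 and *isp5* had 135 and 142 per kb. Some of the genes outside the group were themselves near a chromosome end. SPBC359.01 was at position 33, *pdc101* at 34, *isp5* at 37 and SPAC1039.02 at 44.

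**Figure D5:**
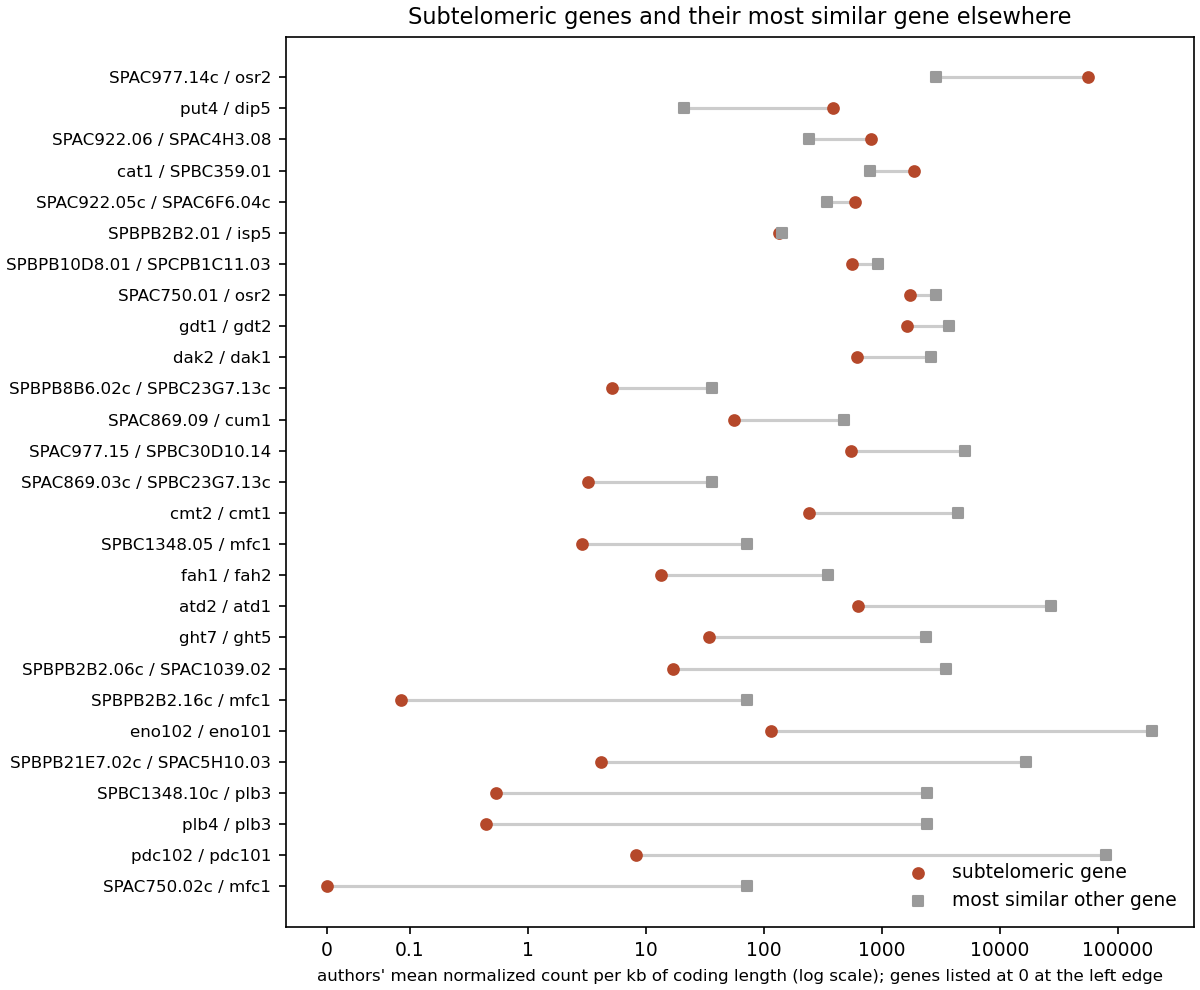
Mean normalized count per kb of coding length (horizontal axis, log scale, genes listed at 0 at the left edge) of 27 subtelomeric genes (circles) and of the most similar gene outside the group (squares); each row is a pair. Circles lie left of squares in 22 pairs and right of them in 5, among them SPAC977.14c (55844 per kb) with *osr2* (2871 per kb).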

How the data were processed

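The labels name 5 samples, 1 per condition, and the deposited sequencing statistics list 15 libraries, 3 per condition by their names. Per the labels, a strand-specific mRNA library was used. The authors mapped reads with STAR 2.7.10a and SAMtools 1.3 to genome version ASM294v2 and counted them with HTSeq 2.0.1. The signal values used here, deposited in 4 tables with equal values, are the authors' means over all libraries of counts divided by size factors. The deposited tables also hold 5 columns of the authors' own comparisons with the control (log2 fold change, standard error, statistic, p and adjusted p), which were not used. In the table of sequencing statistics 6 columns of values per library were not used, since 3 libraries share each sample label, so depth is not given here.

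The 4 tables were joined by gene. Of 5145 genes, 5105 were matched to protein-coding genes of ASM294v3, another version than the authors', so no coordinate or sequence is printed. Levels per kb used coding length. Proteins were compared with blastp (BLAST 2.17.0, E-value 1e-5), and 100-base coding windows were searched on both strands of the genome. Scripts were tested on simulated data. Of the 114 genes 78 overlapped an annotated gene on the opposite strand and 0 on the same strand. Overlap was not computed for the other genes, so these counts are not a trait of the group. Whether counting used strand is not given in the sources used here. Members, roles and lists were chosen with earlier results of these data known. Genes were named if they were among the 15 highest or 10 lowest per kb, had a near-identical copy or had a gene name. Other genes in the text were chosen after their values were seen. Alternatives changed the filter, length, pseudocount, membership and identity.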

Additional observations from a re-analysis of the deposited data

How the results depend on the processing

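The median of log2(level per kb + 1) was 4.17 for subtelomeric genes and 10.10 for other genes, a difference of -5.94. It stayed negative in all 20 alternatives, which gave -6.21 to -2.32. The difference was -2.32 among genes with a level of at least 10, which removes the lowest genes by construction, -3.15 without the genes that have a near-identical copy, and -5.22 without prefix SPBC1348. With unique windows alone, an alternative chosen after seeing the data, it was -2.60. The count of 70 subtelomeric genes under 50 was 50 at a limit of 10 and 75 at a limit of 100. It was 28 of 63 genes without a near-identical copy and 21 of 54 genes with unique windows, both fewer genes by construction. The 51 genes with a copy were 58 at 70% identity and 49 at 98%. No repetition could be left out and no paired analysis was possible because the values are means over all libraries. The 21 genes with a level under 1 rest on less than 1 normalized read per library on average, and 20 of them had repeated windows. The part of depth or of repeated sequence in these values was not tested.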

Other observations

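The 24 genes outside the group among the outermost 34 of the ends of chromosomes I and II had a median level of 269, with 5 under 50, and the 4055 genes of these chromosomes further inward had a median of 1383, with 130 under 50. The genes next to the group on the left end of chromosome I, SPAPJ695.02 and SPAPJ695.01c, had 20.6 and 2.53, and *fub2*, next to it on the right end of chromosome II, had 5.18. Next to the group on the right end of chromosome I, *gto1* had 1332, and on the left end of chromosome II SPBC359.01 had 1385. Further inward, *ght3* on the left end of chromosome I had 308 and *pho1* on the right end of chromosome II had 4660.

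Gene models differed as well. A single coding exon was annotated for 91 subtelomeric genes (79.8%) and for 2629 other genes (52.7% of those matched). The ends of the transcript were marked as incomplete in the annotation for 80 subtelomeric genes (70.2%) and 695 other genes (13.9%). The 80 genes had a median level of 5.30, with 67 under 50, and the 34 subtelomeric genes with annotated transcript ends had a median of 761, with 3 under 50. These 3 were *fex1* (42.4), SPBPB2B2.06c (30.6) and SPAC186.03 (8.22).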
